A study of Mus musculus with 14 samples.

Results

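The genes described here encode the transporters and receptors that carry solutes and proteins across the endothelium of the brain. They are 31 of the 26528 genes counted in nuclei of brain vascular fragments. They were chosen by name with earlier results of these data known, so their counts beside those of all genes are descriptive only. The tight junctions between endothelial cells (ECs) of the brain close the path between the cells, and traffic in vesicles through the cells is kept low. Glucose, amino acids, thyroid hormone, metals and vitamins therefore enter the brain mainly through carriers in the EC membranes, most of them members of the solute carrier (Slc) family. ATP-binding cassette (Abc) pumps return many lipophilic compounds to the blood, and receptors for transferrin, insulin and lipoproteins take up their ligands by endocytosis.

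Transcripts were counted by snRNAseq (single nucleus RNA sequencing) in 1 library per genotype. The CKO library came from *Cdh5CreER;Tgfbr1 CKO/-* mice, which carry a null and a conditional allele of the TGF-beta receptor gene *Tgfbr1*, and in which Cre is active in ECs after 4-hydroxytamoxifen (4HT), given between postnatal day 3 and postnatal day 5. The labels name 4HT for the CKO mice, and whether the control mice received it is not stated in them. The control library is labeled wild type, and the study calls its controls wild type in phenotype, which in its retinas were mostly *Cdh5CreER;Tgfbr1 CKO/+* or the like, so that a wild type label need not mean that Cre and the conditional allele were absent. Mice were studied at postnatal day 14 per the study's methods, whereas the labels call them young adults, and each library pooled the vascular fragments of 2 brains. As each genotype has a single library, no replicate check exists, no difference was tested, and differences between genotypes cannot be told apart from differences between libraries.

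The control library holds 16649 nuclei and 49798325 UMIs (unique molecular identifiers, 1 per captured transcript), and the CKO library 14675 nuclei and 31033373 UMIs. The authors' EC label covers 2475 control and 2944 CKO nuclei, with 5801552 and 6851854 UMIs and medians of 1347 and 1491 UMIs per nucleus. The libraries share 2 nuclear barcodes. They also differ in sex-linked transcripts, with *Xist* at 2247 CPM (a gene's UMIs per 1000000 UMIs of the EC nuclei) in control ECs and 2 UMIs in CKO ECs, and the Y-linked *Uty* at 54.8 and 136 CPM. *Tgfbr1* itself was at 69.1 CPM (95% interval 62.5 to 76.2) in control ECs beside 62.9 CPM (57.1 to 69.1) in the CKO library, and their ratio was 0.910 (0.793 to 1.05). UMIs are assigned to whole genes, so a transcript that lacks the deleted part counts like any other, and these values do not check the deletion. Every interval given here is a 95% interval for counting error alone.

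The EC label was checked against markers. The 12 endothelial markers, all detected, sum to 15217 CPM in control ECs and 12071 CPM in CKO ECs, and *Flt1* is the most abundant. In the control library, vSMCs (vascular smooth muscle cells) hold 43.9%, pericytes 15.6%, nuclei labeled glia 7.06%, oligodendrocytes 1.10% and astrocytes 0.960% of the EC level of these markers. The markers are thus highest in ECs among these labels, but vascular labels share them, and pericyte transcripts are also present in EC nuclei. All 10 pericyte markers were detected there, at a sum of 8594 CPM in control and 7314 CPM in CKO, led by *Rgs5* at 5631 and 4831 CPM, which in control is above its 5253 CPM in nuclei labeled pericytes, although the 10 markers together are at 30572 CPM in those nuclei, and 85.4% of control and 95.6% of CKO EC nuclei had at least 1 such UMI. Proliferation markers, 8 in all and led by *Top2a*, sum to 263 CPM in control and 555.5 CPM in CKO ECs.

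Markers of other cell types were also lower in CKO ECs for some lists. The 6 choroid plexus markers, all detected, sum to 1119 CPM in control and 477 CPM in CKO ECs, nearly all of it *Ttr* at 1113 and 472 CPM. The 5 fibroblast markers, led by *Col1a2*, sum to 729 and 526 CPM, the 6 neuronal markers, led by *Syt1*, to 168 and 123 CPM, and the 5 markers of oligodendrocyte precursors, led by *Pdgfra*, to 45.0 and 22.6 CPM. The 6 astrocyte markers, led by *Gja1*, sum to 371 and 381 CPM, the 5 oligodendrocyte markers, led by *Mbp*, to 52.2 and 54.4 CPM, and the 5 smooth muscle markers, led by *Acta2* and with *Cnn1* at 0 UMIs, to 96.5 and 93.0 CPM. The 6 arterial markers, led by *Efnb2*, sum to 501 and 506 CPM and the 6 venous markers, led by *Nr2f2*, to 735 and 666 CPM. The part of transcripts of other cell types in the ratios of the transport genes was not tested, apart from the subset of EC nuclei with few pericyte transcripts.

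Transcripts of the transport genes were, on balance, less abundant in CKO than in control ECs. A gene was counted as lower or higher past a fold of 1.5, with at least 200 UMIs over both libraries. Of the 31 genes, 29 reached that minimum, and 10 of them were lower and 1 was higher in CKO ECs. Among all 7924 genes with at least 200 UMIs, 6.89% were lower and 16.1% were higher by the same rule. Among the 3228 of these genes that were at least 4-fold higher in ECs than in other nuclei over both libraries, a comparison added after the data were seen, 8.8% were lower and 8.27% were higher. The median ratio of the 29 genes was 0.786 (-0.35 on the log2 scale), beside 1.09 (0.12 on the log2 scale) for all genes. In 24 of the 29 genes the ratio was below 1, beside 37.6% of all genes, and in 21 the whole interval was, beside 21.7% of all genes. A count of intervals also depends on how many UMIs a gene has.

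The count depends on how ECs are scaled and chosen. The endothelial markers as a group were also lower in CKO ECs, with a ratio of 0.793 (0.786 to 0.801) of their sums. The median ratio of the single markers was 0.858, with *Ptprb* at 0.528 and *Flt1* at 0.689, while *Cdh5* at 1.503, *Emcn* at 1.39 and *Tie1* at 1.13 were above 1. Relative to the marker sum, which moves every gene by 0.33 on the log2 scale, 4 transport genes were lower, 3 were higher and their median was -0.01 on the log2 scale, beside 0.46 for all genes, of which 3.21% were then lower and 37.4% higher. Under TMM scaling, a trimmed mean over genes, 11 were lower, 0 were higher and the median was -0.45, beside 0.02 for all genes, of which 9.45% were lower and 12.3% higher. When each EC nucleus had equal weight, 13 were lower, 1 was higher and the median was -0.54, beside 0.38 for all genes, of which 8.83% were lower and 36.9% higher. The median of the transport genes was thus below that of all genes under each of these scalings. It was negative under each, but its size, from -0.54 to -0.01, and the number of genes past the fold moved with the scale.

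The choice of nuclei mattered as well. When ECs were taken as all nuclei with UMIs of at least 2 endothelial markers (3240 control and 3154 CKO nuclei, of which 2475 and 2940 carry the EC label), 3 transport genes were lower, 1 was higher and the median was 0.01, beside 0.11 for all genes, of which 15.1% were lower and 11.0% higher. In EC nuclei with at most 25% pericyte UMIs among their pericyte and endothelial marker UMIs, 12 of the 25 genes with enough UMIs were lower and 1 was higher, beside 12.2% and 18.2% of all genes. In EC nuclei without a UMI of a proliferation marker 8 of 29 were lower and 1 was higher, beside 6.71% and 13.3% of all genes. *Lrp8*, *Tfrc* and *Mfsd2a* were past the fold under each of the 8 other scalings and choices of EC nuclei.

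**Figure D1:**
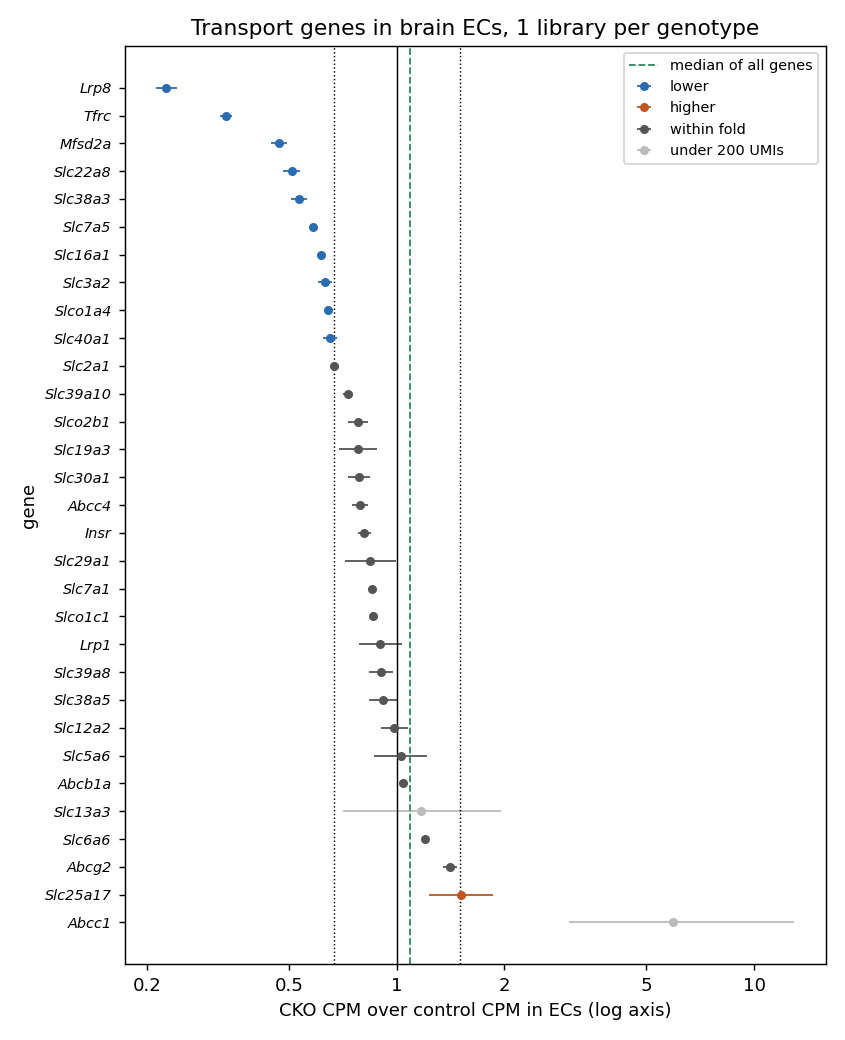
Ratio of CKO CPM to control CPM in ECs for each of the 31 transport genes, on a log axis, with 95% exact conditional binomial intervals for counting error. Dotted lines mark a fold of 1.5 either way and the dashed line the median of all genes, 1.09; *Lrp8*, *Tfrc* and *Mfsd2a* lie farthest to the left, at 0.227, 0.333 and 0.468.

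Among those of the 31 genes with at least 200 UMIs, the lowest ratios were those of 2 of the 4 receptors that bring proteins into the cell. *Lrp8*, a receptor of the LDL receptor family that binds apolipoprotein E and reelin, was at 759.5 CPM (737 to 782) in control ECs and 172.5 CPM (163 to 183) in CKO ECs. The ratio of 0.227 (0.213 to 0.242) is the lowest of the 31 genes. *Tfrc*, the transferrin receptor through which iron enters ECs, was at 1440 CPM (1409 to 1471) in control and 479.6 CPM (463 to 496) in CKO ECs, a ratio of 0.333 (0.320 to 0.347). For both genes the counting intervals of the libraries lie far apart. *Insr*, the insulin receptor, was at 822 CPM in control and 668 CPM in CKO ECs, a ratio of 0.813 (0.780 to 0.846). *Lrp1*, a large scavenger receptor that is abundant in perivascular cells and astrocytes, was at 70.7 and 63.6 CPM, a ratio of 0.900 (0.785 to 1.03) whose interval includes 1.

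The differences in *Lrp8* and *Tfrc* were present in each class of EC nuclei examined. These classes were set by marker UMIs after the data were seen. In nuclei with UMIs of venous but not arterial markers the CKO to control ratio was 0.190 (0.168 to 0.213) for *Lrp8*, and in nuclei with arterial but not venous markers 0.233 (0.186 to 0.291). For *Tfrc* the same classes gave 0.311 (0.290 to 0.333) and 0.368 (0.319 to 0.425). In nuclei without a UMI of a proliferation marker the ratios were 0.232 for *Lrp8* and 0.347 for *Tfrc*, and in nuclei with such a UMI 0.249 and 0.328. The classes are subsets of the same EC nuclei and overlap, so they are no independent check. The venous markers were higher in control pericytes and vSMCs than in control ECs, so the class names stand for markers only.

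*Mfsd2a* had the third lowest ratio of the 31 genes. It carries lysophosphatidylcholine with docosahexaenoic acid into the brain and is needed to keep vesicle traffic in brain ECs low. It was at 728 CPM (706 to 750) in control ECs and 340.5 CPM (327 to 355) in CKO ECs, a ratio of 0.468 (0.445 to 0.492). *Slc12a2*, the sodium-potassium-chloride cotransporter NKCC1, was at 175 and 172.5 CPM, a ratio of 0.986 (0.906 to 1.07), so that no difference was detectable at this depth.

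Of the carriers of the main fuels of the brain, 1 of 2 was lower past the fold. *Slc2a1*, the glucose transporter GLUT1, was at 1964 CPM (1928 to 2000) in control ECs and 1311 CPM (1284 to 1338) in CKO ECs, a ratio of 0.668 (0.649 to 0.686). This is just short of the fold used here and is not counted as lower, whereas *Slc40a1* at 0.651 is just past it. *Slc16a1*, the monocarboxylate transporter MCT1 for lactate and ketone bodies, was at 3130.5 CPM (3085 to 3176) in control and 1923 CPM (1890 to 1956) in CKO ECs, a ratio of 0.614 (0.601 to 0.628). Relative to the endothelial marker sum the ratios of *Slc2a1* and *Slc16a1* were 0.841 and 0.774, so that neither was past the fold.

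Amino acid carriers differed among themselves. *Slc7a5* and *Slc3a2* encode the light and heavy chains of LAT1, which exchanges large neutral amino acids. *Slc7a5* was at 2430 CPM in control and 1420 CPM in CKO ECs, a ratio of 0.584 (0.569 to 0.600), and *Slc3a2* at 711 and 448 CPM, a ratio of 0.630 (0.602 to 0.661). Transcripts of both chains were thus lower past the fold. Under other scalings or choices of EC nuclei their ratios reached 0.791 and 0.839, short of it. *Slc38a3*, a sodium-coupled carrier of glutamine, was at 599 CPM in control and 319.5 CPM in CKO ECs, a ratio of 0.533 (0.505 to 0.563). Its relative *Slc38a5* was at 155 and 142 CPM, a ratio of 0.917 (0.837 to 1.01) whose interval includes 1. *Slc7a1*, the cationic amino acid transporter CAT1 that takes up arginine and lysine, was at 1905 and 1624 CPM, a ratio of 0.853 (0.830 to 0.875). *Slc6a6*, the taurine transporter, was at 2165 CPM in control and 2607 CPM in CKO ECs, a ratio of 1.20 (1.18 to 1.23). Within this group 3 of 6 genes were lower past the fold and *Slc6a6* alone had a ratio above 1. *Slc38a3*, too, was short of the fold under another setting, with a ratio of up to 0.701.

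Of the carriers of organic anions and hormones, 2 of 4 with enough UMIs were lower past the fold. *Slc22a8*, the organic anion transporter OAT3, was at 578 CPM in control and 294 CPM in CKO ECs, a ratio of 0.508 (0.481 to 0.538). *Slco1a4*, which carries bile salts, steroid conjugates and many drugs, was at 1706 and 1100 CPM, a ratio of 0.645 (0.626 to 0.664). *Slco1c1*, a thyroxine transporter, was at 3286 and 2818 CPM, a ratio of 0.857 (0.840 to 0.875). *Slco2b1* was at 347 and 270.3 CPM, a ratio of 0.780 (0.732 to 0.831). All 4 were below 1, and the thyroxine carrier differed least. Under other scalings or choices of EC nuclei the ratios of *Slc22a8* and *Slco1a4* reached 0.673 and 0.840, short of the fold. *Slc13a3*, a carrier of dicarboxylates, had 29 control and 40 CKO UMIs in ECs, too few for a comparison.

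Of the 4 Abc pumps, 3 had enough UMIs, and 0 of these were lower past the fold. *Abcb1a*, which encodes P-glycoprotein, was at 1495 CPM in control and 1560 CPM in CKO ECs, a ratio of 1.04 (1.01 to 1.07). Its ratio ranged below 1 under some settings, to 0.946 when each nucleus had equal weight, and no direction is given for it. *Abcg2*, the breast cancer resistance protein, was at 547 and 769.7 CPM, a ratio of 1.41 (1.35 to 1.47), and was above 1 under each of the 8 other settings, between 1.14 and 1.77, and past the fold in 3 of them. *Abcc4*, which exports nucleotides and organic anions, was at 532 and 421 CPM, a ratio of 0.791 (0.752 to 0.833). *Abcc1* had only 10 UMIs in control ECs beside 70 UMIs in the CKO library, too few to be counted, and its ratio was 5.93 (3.04 to 12.9).

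All 4 metal carriers had ratios below 1. *Slc40a1*, which encodes ferroportin, the exporter of iron from the cell, was at 686.5 CPM (665 to 708) in control ECs and 447 CPM (431 to 463) in CKO ECs, a ratio of 0.651 (0.621 to 0.683). Transcripts for iron uptake by *Tfrc* and for iron export by *Slc40a1* were therefore both lower. *Slc39a10*, a zinc importer, was at 1402 and 1023 CPM, a ratio of 0.729 (0.706 to 0.753). *Slc39a8*, an importer of manganese and zinc, was at 231 and 209 CPM, a ratio of 0.905 (0.839 to 0.976), and the zinc exporter gene *Slc30a1* at 286 and 224.5 CPM, a ratio of 0.786 (0.733 to 0.843).

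Of the 3 carriers of vitamins and nucleosides, 0 were past the fold. *Slc19a3*, a thiamine transporter, was at 92.0 and 71.8 CPM, a ratio of 0.780 (0.689 to 0.883). *Slc29a1*, the equilibrative nucleoside transporter ENT1, was at 51.4 and 43.4 CPM, a ratio of 0.844 (0.716 to 0.994). *Slc5a6*, which carries biotin and pantothenate, was at 43.9 and 45.1 CPM, a ratio of 1.03 (0.866 to 1.22) whose interval includes 1. *Slc25a17*, a carrier of the peroxisomal membrane and not of the cell surface, was the 1 gene higher past the fold, with 149 control and 266 CKO UMIs, at 25.7 and 38.8 CPM and a ratio of 1.51 (1.23 to 1.86). The lower bound of its interval is short of the fold, and its ratio was between 1.39 and 2.85 under the 8 other settings, and under 1.5 in 3 of them.

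Other genes of transport across the brain endothelium were listed beside the 31, also with earlier results of these data known. Of 49 such genes, 32 had at least 200 UMIs, 11 of them (34.4%) were lower and 4 (12.5%) were higher past the fold, beside 6.89% and 16.1% of all genes, and their median ratio was 0.809. In 21 of the 32 the ratio was below 1, and their ratios ran both lower and higher than those of the 29 transport genes with enough UMIs. The smallest ratios were those of *Stra6*, a receptor for retinol-binding protein, at 50.5 CPM in control and 6.13 CPM in CKO ECs (0.121, 0.0857 to 0.168), the GABA transporter gene *Slc6a13* (0.289), the sterol exporter gene *Abcg1* (0.353), *Slc46a3* (0.355) and the amino acid exchanger gene *Slc7a8* (0.485). The largest were those of *Slc23a2*, a transporter of ascorbate, at 30.3 and 67.6 CPM (2.23, 1.87 to 2.67), the inositol transporter gene *Slc5a3* (1.89), the phosphate transporter gene *Slc20a2* (1.75), the neutral amino acid transporter gene *Slc1a4* (1.53) and *Heph*, a ferroxidase (1.48). Over whole families the ratios were centered near 1. Of 117 Slc genes with at least 200 UMIs in ECs, 18 were lower and 14 higher with a median ratio of 1.01, and of 17 Abc genes 3 were lower and 3 higher with a median ratio of 1.04.

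Most of the 31 genes were far more abundant in ECs than in the other nuclei of the same library. In the control library 26 of 31 were at least 4-fold higher in ECs than in all other nuclei together, and in the CKO library 25 of 31, beside 22.2% and 28.5% of all genes with at least 200 UMIs in the library. The median enrichment of the 31 was 32.5 in control and 63.1 in CKO. The highest control value was that of *Slc7a5*, 97.5 (91.6 to 104), which was 258 (217 to 309) in CKO. *Mfsd2a* was enriched 88.4-fold (79.4 to 98.7) in control and 179-fold (134 to 245) in CKO, and *Tfrc* 87.6-fold (81.2 to 94.6) and 125-fold (102 to 155). These genes were thus lower in CKO than in control ECs and yet more enriched over all other nuclei of their library together.

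**Figure D2:**
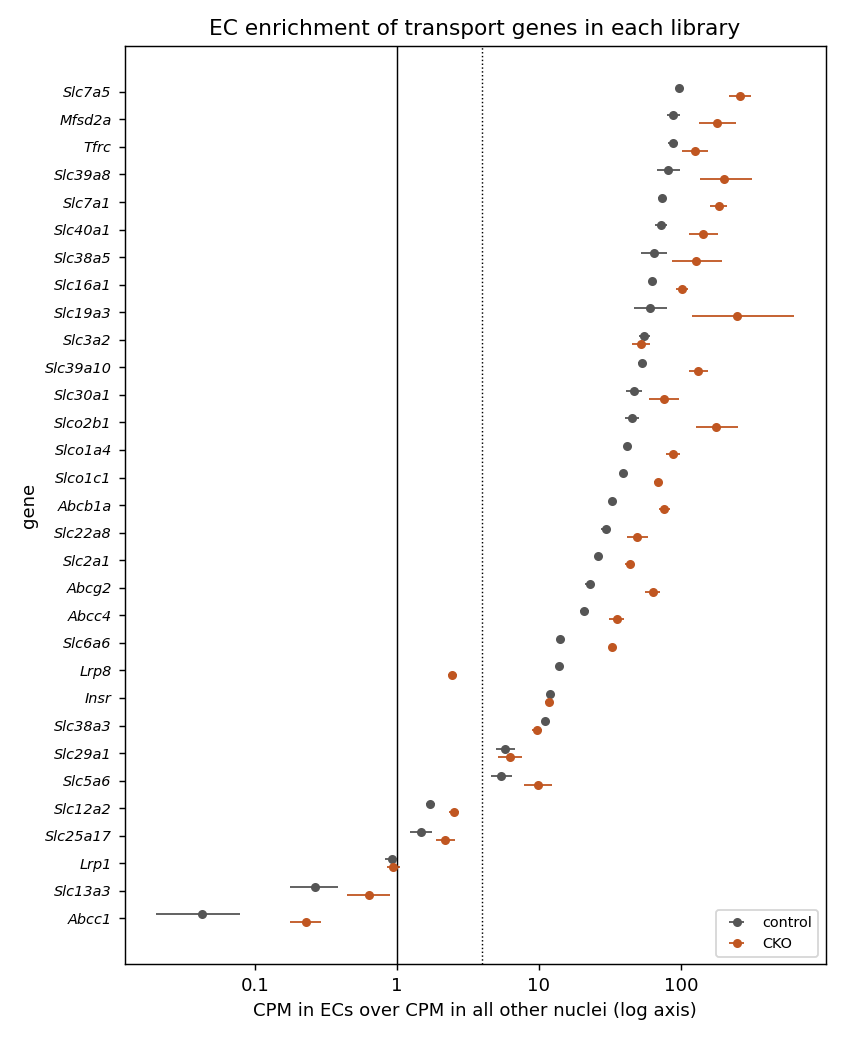
CPM in ECs divided by CPM in all other nuclei of the same library, for the control and the CKO library, on a log axis with 95% exact conditional binomial intervals for counting error. The dotted line marks an enrichment of 4; *Lrp8* is past it in control (13.8) and not in CKO (2.46), while *Slc12a2*, *Slc25a17*, *Lrp1*, *Slc13a3* and *Abcc1* are below it in both.

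The enrichment was larger in CKO for 27 of 31 genes, and 28 of 31 had a lower CPM in the other nuclei of the CKO library than in those of the control library. This was shared by most genes. Of all genes with at least 200 UMIs in ECs and UMIs in the other nuclei of both libraries, 81.5% had a larger enrichment in CKO and 73.5% a lower CPM in the other nuclei. Of those at least 4-fold higher in ECs over both libraries the shares were 88.5% and 92.8%, and all 12 endothelial markers moved the same way. Nuclei labeled vSMCs numbered 449 in control and 103 in CKO, and those labeled glia 1227 and 419. Without pericytes and vSMCs among the other nuclei, the median enrichment of the transport genes was 61.1 in control and 94.2 in CKO. With equal weight for each other label with at least 100000 UMIs it was 20.2 in control and 17.9 in CKO, so that the order of the libraries turned, and 26 and 23 genes were at least 4-fold higher in ECs. A larger enrichment in CKO thus depends on which labels make up the other nuclei. Levels within single labels differed too. The endothelial markers were at 167 CPM in control and 1.37 CPM in CKO oligodendrocytes, at 10.5 and 1.13 CPM in Glut_1 and at 1074 and 661 CPM in nuclei labeled glia. Pericytes and microglia aside, they were higher in CKO only in vSMCs, Glut_5 and Glut_21. The part of such differences in the enrichment was not tested. Among other labels with at least 100000 UMIs in the library, vSMCs were the highest for 20 of the 31 genes in control and for 21 in CKO, beside 9.87% and 15.3% of all genes and 31.4% and 38.9% of genes at least 4-fold higher in ECs in that library. This minimum leaves out microglia in control, and microglia, pericytes and GABA_22 in CKO. With every label included, a comparison added after the data were seen, vSMCs were the highest for 18 and 17 genes. Against the single highest other label with at least 100000 UMIs, 7 genes in control and 2 in CKO were at least 4-fold higher in ECs, beside 0.23% and 0.279% of all genes. Against the highest of every other label 6 and 2 were, beside 0.199% and 0.226%.

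The vSMC label also carries endothelial transcripts. Its nuclei held 43.9% (43.0 to 44.8) of the EC level of the endothelial markers in control and 56.6% (53.9 to 59.3) in CKO. The level relative to ECs was below that of the markers, with intervals apart in both libraries, for 9 of the 31 transport genes, such as *Slc7a5* at 18.2% (16.8 to 19.6) and 16.4% (12.5 to 21.1). By the same rule 0.846% of all genes with at least 200 UMIs in ECs were below, and 1.86% of those at least 4-fold higher in ECs. Such counts rest on intervals, which are narrower for genes with more UMIs, and the part of abundance in them was not tested. For 6 it was above, namely *Slc2a1*, *Slc6a6*, *Slc13a3*, *Abcc1*, *Lrp1* and *Slc12a2*, beside 39.4% of all genes and 33.4% of those at least 4-fold higher in ECs. *Slc2a1* stood at 61.9% (58.9 to 65.0) of its EC level in control and 80.9% (71.5 to 91.3) in CKO, and *Slc6a6* at 60.6% (57.8 to 63.5) and 74.8% (68.4 to 81.8). vSMC nuclei also hold more arterial endothelial markers than EC nuclei do, at 1488 and 1568 CPM beside 501 and 506 CPM. The part of endothelial RNA in vSMC nuclei in these levels was not tested.

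Nuclei labeled glia hold fibroblast markers at 5955 CPM in control and 5555 CPM in CKO, above the 2066 and 1863 CPM of their astrocyte markers, so the label is used here only as a name. With endothelial markers at 7.06% (6.74 to 7.39) of the EC level in control and 5.48% (4.90 to 6.10) in CKO, 13 of the 31 genes were above that share in both libraries and 3 were below it. Of all genes with at least 200 UMIs in ECs 84.8% were above and 0.126% below, and of those at least 4-fold higher in ECs 71.6% and 0.31%. A level above that of the markers is thus common among genes. These counts, too, depend on how many UMIs a gene has. *Slc22a8* reached 50.1% (45.5 to 55.0) of its EC level in control and 64.0% (51.5 to 78.8) in CKO, *Abcg2* 52.1% (47.3 to 57.3) and 36.2% (30.4 to 42.8), and *Abcb1a* 32.3% (30.1 to 34.7) and 29.0% (25.3 to 33.1). *Slc13a3* was highest in this label, at 344.5 and 230.4 CPM, beside 91.0 and 132.5 CPM in astrocytes and 5.00 and 5.84 CPM in ECs. The source of these transcripts was not tested.

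The 5 genes without EC enrichment were highest elsewhere. *Slc12a2* was at 1165 CPM in control pericytes, at 737 CPM in control and 770 CPM in CKO nuclei labeled CP_8, which hold choroid plexus markers at 41969 and 40973 CPM, and at 531 and 633 CPM in oligodendrocytes. *Lrp1* was at 473 and 525 CPM in nuclei labeled glia and at 466 and 475 CPM in astrocytes. *Abcc1* was highest in CP_8, at 122 and 93.6 CPM, and *Slc25a17* was highest, among labels with at least 100000 UMIs, in nuclei labeled glia in control, at 63.5 CPM, and in astrocytes in CKO, at 59.4 CPM. The CKO library holds only 22 pericyte and 11 microglial nuclei, and no genotype comparison in them is reported here.

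Some EC-enriched carriers also had a second site. *Slco1c1* was at 508 CPM in control and 546 CPM in CKO astrocytes, and *Slc38a3* at 273 and 336 CPM. *Slc38a3* was also at 315 and 292 CPM in CP_6 and at 249 and 243 CPM in CP_8. Its CKO to control ratio was 1.23 (1.02 to 1.48) in astrocytes, 0.926 (0.823 to 1.04) in CP_6, 0.978 (0.821 to 1.16) in CP_8 and, from 125 and 18 UMIs, 0.4998 (0.287 to 0.823) in nuclei labeled glia. For *Slco1c1* the ratio in astrocytes was 1.07 (0.932 to 1.24), but in CP_8, where it was at 327 and 176 CPM, it was 0.538 (0.442 to 0.651), past the fold. *Slco2b1* reached 1089 CPM in the 129 control nuclei labeled microglia, 314% (250 to 389) of its EC level, and *Slc40a1* 313 CPM. *Slc2a1* was at 356 CPM in control and 278 CPM in CKO nuclei labeled CP_6, where endothelial markers were at 0.810% of the control EC level.

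Of the 31 genes, *Lrp8* alone was past an enrichment of 4 in control, at 13.8-fold (13.1 to 14.5), and short of it in CKO, at 2.46-fold (2.28 to 2.65). Of the other transport genes, *Stra6*, at 6.88-fold and 1.08-fold, and *Abcg1*, at 9.13-fold and 2.76-fold, also fell short of 4 only in CKO. *Lrp8* is also a neuronal gene, but outside ECs it was not confined to neuronal labels. In nuclei labeled CP_6 it was at 134 CPM in control and 153 CPM in CKO. Among the other labels with at least 100000 UMIs it was highest in nuclei labeled Glut_21 in both libraries, at 203 CPM in control and 190 CPM in CKO. In CKO the EC level was 0.910 of that in Glut_21, whereas in control it was 3.74 times that level. In vSMCs *Lrp8* was also lower in CKO, at 162 and 46.5 CPM, a ratio of 0.287 (0.147 to 0.511) from 250 and 12 UMIs.

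Within ECs the transport genes were compared between nuclei with arterial and with venous markers. This comparison was also chosen after the data were seen. The venous markers, which include *Icam1* and *Vcam1*, were at 735 CPM in control ECs. They were higher in control pericytes, at 1206.5 CPM, and in control vSMCs, at 999.6 CPM. A nucleus with such a UMI is therefore not shown to be a venous EC. Between 247 control and 355 CKO nuclei with arterial markers only and 881 and 932 with venous markers only, 7 of the 31 genes were higher on the arterial side with intervals above 1 in both libraries, and 6 were lower. Of all genes with at least 200 UMIs in ECs 3.84% were higher and 5.28% lower by this rule, and of those at least 4-fold higher in ECs 6.51% and 3.53%. A count by intervals depends here as well on how many UMIs a gene has. *Slco1a4* was 1.87-fold (1.74 to 2.00) higher on the arterial side in control and 1.54-fold (1.42 to 1.67) in CKO, *Mfsd2a* 1.43-fold (1.28 to 1.60) and 1.90-fold (1.64 to 2.20), and *Slc2a1* 1.37-fold in both. The ratio was 0.606 (0.438 to 0.821) and 0.494 (0.367 to 0.653) for *Slc38a5*, and 0.539 (0.279 to 0.956) and 0.448 (0.243 to 0.771) for *Slc29a1*. The endothelial markers were themselves 1.25-fold and 1.17-fold higher on the arterial side, so that small differences in that direction are shared with them.

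EC nuclei with a UMI of a proliferation marker numbered 343 in control (13.9% of EC nuclei) and 966 in CKO (32.8%), and they were deeper, with medians of 2864 and 2464 UMIs beside 1212 and 1211 for the rest. In these nuclei 17 of the 31 genes were lower than in the rest with intervals below 1 in both libraries, as were the endothelial markers, at 0.731 and 0.817. By the same rule 6.13% of all genes with at least 200 UMIs in ECs were lower and 14.9% were higher, and of those at least 4-fold higher in ECs 11.9% and 9.48%. These counts rest on intervals, which are narrower for genes with more UMIs, and the part of abundance in them was not tested. *Mfsd2a* had ratios of 0.680 (0.628 to 0.736) and 0.622 (0.570 to 0.677), and *Slco1a4* 0.522 and 0.678. *Slc29a1*, the nucleoside transporter gene, was the 1 gene higher in both, at 1.40 (1.08 to 1.80) and 1.36 (1.08 to 1.72).

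Single EC nuclei expressed many of these genes together. After each nucleus was thinned to 1000 UMIs, which leaves out 1005 control and 1055 CKO EC nuclei that are shallower, the median nucleus had UMIs of 13 of the 31 genes in control and of 11 in CKO. Without thinning the medians were 16 and 14. In the neurons labeled Glut_0, with medians of 5004 and 2314 UMIs per nucleus, the thinned median was 0 in both libraries, whereas in vSMCs it was 7 in control and 5 in CKO and in nuclei labeled glia 2 and 3. *Lrp8* was found in 51.4% (48.8 to 54.0) of thinned control EC nuclei and in 17.2% (15.5 to 19.0) of thinned CKO EC nuclei, beside 2.17% and 4.04% of Glut_0 nuclei, which express it. Unthinned, the EC shares were 66.0% and 27.2%. *Tfrc* was found in 68.4% and 37.2% of thinned EC nuclei, beside 0.0542% and 0% of Glut_0 nuclei, and in 79.8% and 50.7% unthinned. *Slco1c1* was the most widely found, in 90.9% of thinned control and 90.05% of thinned CKO EC nuclei, beside 0.271% and 0.336% of Glut_0 nuclei, and in 93.8% and 94.2% of EC nuclei unthinned. For *Lrp8* and *Tfrc* the share of EC nuclei with a transcript was thus lower in CKO as well. At a fixed depth this share follows largely from the level of the gene, so it is no separate result.

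A promoter is shown for *Lrp8*, *Tfrc* and *Mfsd2a*, which had the 3 lowest ratios of the 31 genes. They are shown because these genes were lower together in a model of *Tgfbr1* loss, and signals of this receptor reach DNA through SMAD proteins. Sequences are those of RefSeq on GRCm38.p6, 300 bases around a start site, and 24 of the 31 genes had at least 1. The SMAD motif CAGAC, chosen after the data were seen and searched on both strands (GTCTG on the other), was in 24 of 43 promoters of these genes (55.8%) and in 49.6% of all 32841 promoters of the same length. The first listed *Lrp8* promoter, at chr4:107802635-107802934 on the plus strand, has 1 match. The first listed *Tfrc* promoter, at chr16:32608646-32608945 on the plus strand, has no match, and the *Mfsd2a* promoter, at chr4:122961139-122961438 on the minus strand, has no match. Capitals mark the motif, and binding was not measured.
Lrp8: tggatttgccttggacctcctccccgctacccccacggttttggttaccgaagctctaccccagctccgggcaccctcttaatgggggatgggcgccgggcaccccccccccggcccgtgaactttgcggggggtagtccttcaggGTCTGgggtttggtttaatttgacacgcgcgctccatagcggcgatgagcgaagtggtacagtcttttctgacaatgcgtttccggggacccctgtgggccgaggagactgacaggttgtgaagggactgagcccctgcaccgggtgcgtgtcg
Tfrc: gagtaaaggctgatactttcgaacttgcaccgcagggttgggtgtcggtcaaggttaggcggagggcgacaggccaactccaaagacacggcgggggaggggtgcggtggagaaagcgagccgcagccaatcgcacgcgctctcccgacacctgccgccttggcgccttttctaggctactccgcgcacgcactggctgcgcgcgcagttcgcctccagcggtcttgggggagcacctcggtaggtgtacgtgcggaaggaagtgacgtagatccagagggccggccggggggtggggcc
Mfsd2a: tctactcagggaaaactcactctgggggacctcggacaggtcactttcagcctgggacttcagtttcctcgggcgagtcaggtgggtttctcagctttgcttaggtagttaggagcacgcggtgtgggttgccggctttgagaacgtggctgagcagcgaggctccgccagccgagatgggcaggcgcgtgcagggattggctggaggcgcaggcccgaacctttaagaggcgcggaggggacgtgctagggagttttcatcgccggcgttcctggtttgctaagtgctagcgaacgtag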

How the data were processed

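The authors aligned reads and counted UMIs with PIPseeker, removed background with CellBender and doublets with SOLO, removed mixed nuclei by hand, and clustered and labeled nuclei with Seurat. The files deposited by the authors hold a whole-number UMI count for each gene in each nucleus. The genome is GRCm39 in the study's methods and mm10 in the submitters' processing notes, and genes were matched by symbol only.

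Counts were summed over nuclei per library and label and divided by the sum of all genes (CPM), with no further filter on nuclei and no test. CPM has exact Poisson intervals, ratios exact conditional binomial intervals and shares exact binomial (Clopper-Pearson) intervals. The members and lists were chosen with earlier results of these data known. All 31 genes are named, and of the other transport genes those with the 5 largest and 5 smallest ratios among genes with at least 200 UMIs. Alternatives covered TMM scaling (edgeR 4.0.16), depth, weighting of nuclei, choice of EC nuclei, scaling by endothelial markers, thresholds and thinning, the last added after seeing the data. The fold call and intervals were tested on simulated data, drawn as independent Poisson counts from the EC sums. Such data carry counting error alone, as the intervals assume. Differences between nuclei, brains or libraries were not simulated. Software was Python 3.11.15, numpy 2.4.6, pandas 2.3.3, scipy 1.17.1, matplotlib 3.10.9 and R 4.3.3. The retina libraries were not used here. The sum of microglial markers in ECs is not reported here.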

Additional observations from a re-analysis of the deposited data

Results flagged for a closer look

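For 2 of the genes that differed in ECs, the nuclei labeled Glut_0, the largest group of neurons, went the other way between the same libraries. The ratio of CKO to control for *Lrp8* was 0.227 in ECs and 2.17 (1.87 to 2.53) in Glut_0, where it was at 25.3 and 55.0 CPM. For *Slc25a17* it was 1.51 in ECs and 0.569 (0.425 to 0.754) in Glut_0, at 15.1 and 8.57 CPM. Ratios past the fold were common in Glut_0 among the transport genes with at least 200 UMIs there. *Slc39a10* (0.134), *Slc12a2* (0.409) and *Slc6a6* (0.5855) were also lower and *Lrp1* (1.55) was also higher. *Insr* (0.683) and *Abcc1* (1.20) were within the fold. The share of all genes past the fold in Glut_0 was not computed. Only labels with at least 200 UMIs of the gene over both libraries were considered. In the other neuronal and CP labels with that many, *Lrp8* was not past the fold, at 1.44 in Glut_1, 1.13 in Glut_5, 1.14 in CP_6 and 0.935 in Glut_21. With fewer UMIs, *Lrp8* was also higher in Glut_14 (2.31, 1.71 to 3.15), CP_8 (1.87, 1.27 to 2.73) and GABA_9 (1.74, 1.21 to 2.49), and *Slc3a2*, at 0.630 in ECs, was higher in nuclei labeled glia (2.25, 1.45 to 3.47), CP_8 (1.86, 1.08 to 3.15) and CP_6 (1.78, 1.17 to 2.70), whereas *Slc25a17* was higher, as in ECs, in GABA_9 (2.00, 1.11 to 3.65) and CP_8 (1.81, 1.17 to 2.78). Single labels were compared after the data were seen, because with all other nuclei together 0 genes went the other way past the fold. The difference between ECs and Glut_0 was not tested, and Glut_0 nuclei had medians of 5004 UMIs in control and 2314 in CKO.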

How the results depend on the processing

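The count of 10 lower genes was between 8 and 13 under TMM scaling, in EC nuclei with at least 1000 UMIs, with equal weight per nucleus, with few pericyte transcripts, without proliferation markers and after thinning, and was 3 with ECs chosen by endothelial marker UMIs, 4 when scaled by endothelial markers and 3 at a fold of 2. The median log2 ratio of -0.35 became -0.45 under TMM, -0.54 with equal weight per nucleus, -0.56 in EC nuclei with few pericyte transcripts, -0.50 after thinning, 0.01 with marker-chosen ECs and -0.01 with marker scaling. The 1 higher gene became 0 under TMM, after thinning and at a fold of 2, 2 with at least 50 UMIs or no minimum, which admit *Abcc1*, and 3 with marker scaling. The other transport genes past the fold, 15 in all, became 7 with few pericyte transcripts, 7 after thinning, 28 with no minimum and 6 at a fold of 2. Against the highest other label with at least 100000 UMIs the EC-enriched genes fell from 26 to 7 in control and from 25 to 2 in CKO, and against the highest of every other label to 6 and 2. A shift of the median by over 0.1 was taken as a move. The cause was not tested where thresholds or fewer UMIs do not set it. Of 232 ratios of single genes under these settings, 81 lay within the counting interval of the reported ratio, 151 lay beyond it and 0 of those past the fold changed direction. Thinning and the use of every label were added after seeing the data. With 1 library per genotype, no left-out library or paired analysis was possible because each genotype has no second library. How far libraries of the same genotype differ was not measured.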
